A study of Mus musculus with 60 samples.

Results

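The 5 genes described here belong to the aryl hydrocarbon receptor pathway of the mouse. They are Ahr, the receptor; Arnt, its partner; Ahrr, its repressor; and Tiparp and Cyp1b1, both known targets of the receptor. They were found by gene symbol among the 48440 genes of 3 deposited count tables, and each symbol gave 1 gene. They were chosen with their depth-scaled counts (CPM, counts scaled to the same library size) over the 8 groups of samples in view, so their levels and differences are descriptions and carry no test. The study measured bulk RNA of cancer-associated fibroblasts (CAFs), the fibroblasts of tumours, which the labels call tCAFs without explaining the prefix. In multicellular aggregates, where the cells were grown together, CAFs were cultured with 344SQ cells, with 393P cells or alone (3 replicates each). The titles of the CAFs-alone samples there read CAF-GFP, while the other titles do not name GFP. 344SQ and 393P are mouse lung adenocarcinoma lines, known as metastatic and poorly metastatic. In a further set of aggregates, CAFs were cultured with 344SQ cells that carried an shRNA named for ZEB1 (shZEB1) or a control shRNA (shCTL), with 3 replicates each. In Boyden chambers, where a membrane separates the cell types, CAFs were again cultured with 344SQ cells, with 393P cells or alone, with 5 biological replicates each and 3 technical libraries per replicate, summed here. The CAFs were enriched by fluorescence-activated cell sorting before lysis, per the labels. Nothing in the labels says that the replicates came from separate isolates of CAFs, so spreads and p-values measure only the spread between these samples.

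The aryl hydrocarbon receptor is a transcription factor that waits in the cytoplasm with chaperones until it binds a ligand, such as a dioxin, a plant compound or a tryptophan metabolite. It then enters the nucleus, pairs with ARNT and binds DNA at sites with the core GCGTG. Among the genes it is known to switch on are the cytochrome P450 genes Cyp1a1 and Cyp1b1 and its own brakes, Ahrr, whose protein competes for ARNT, and Tiparp, whose protein ADP-ribosylates the receptor.

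The aggregate libraries held 757717 to 1258751 counts, the shRNA aggregates 739530 to 2144803 and the Boyden sums 4182944 to 8542262, so the aggregates were the shallower set. Genes of ribosomal RNA or named as rRNA-like took 19.0% to 25.0% of the counts in the aggregates, 18.2% to 25.8% in the shRNA aggregates and 0.289% to 0.510% in the Boyden sums. Mitochondrial genes took 19.0% to 24.3% in the aggregates, 23.5% to 40.8% in the shRNA aggregates and 10.8% to 15.0% in the Boyden sums. Of 10 fibroblast markers, 9 or 10 were detected in every library. Their summed CPM was 4780 to 5130 with 344SQ cells, 7245 to 8633 with 393P cells and 3964 to 6657 in CAFs alone in the aggregates, and 6731 to 7458, 7419 to 7789 and 8691 to 9145 in the same groups of the Boyden chamber. The summed CPM of 12 carcinoma markers was 13.8 to 34.9 with 344SQ cells, 23.5 to 91.7 with 393P cells and 10.1 to 17.2 in CAFs alone in the aggregates. It was 44.8, 980 and 637 with shZEB1 and 57.5, 39.4 and 1534 with shCTL, and 20.7 to 93.9 in the Boyden sums. Epcam, a defining carcinoma marker, had 0 to 4 counts in any library, and the leukocyte markers Ptprc and Adgre1 had 0 to 4 and 0. Of the other leukocyte markers, Cd68 had 5 to 31 counts in the aggregates, 13 to 106 in the shRNA aggregates and 44 to 87 in the Boyden sums, and Cd14 had 0 to 9, 2 to 56 and 14 to 40. The summed CPM of the 6 leukocyte markers was 14.7 to 23.3 with 344SQ cells, 4.53 to 17.1 with 393P cells and 21.3 to 36.1 in CAFs alone in the aggregates, 31.7 to 92.0 in the shRNA aggregates and 9.96 to 20.3 in the Boyden sums. The part of these marker sums and shares in the results was not tested. Zeb1, which the shRNA targets in the cancer cells, had 144, 48.4 and 120 CPM in CAFs with shZEB1 cells, against 71.8, 105 and 50.3 CPM with shCTL cells; in sorted CAFs this does not check the knockdown. Replicates varied with a biological coefficient of variation of 16.2% (aggregates), 61.7% (shRNA aggregates) and 8.58% (Boyden chamber), so the shRNA values are the least certain. The tables were scaled separately, and levels are compared only within a table.

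Ahr, the receptor (ENSMUSG00000019256.17, mm10 chromosome 12, 35497974 to 35535038, minus strand), stood higher in aggregates with either cancer line and lower across the membrane with either line. In the aggregates it had 397, 516 and 485 CPM with 344SQ cells, 448, 466 and 401 CPM with 393P cells, and 104, 136 and 119 CPM in CAFs alone. Every library with cancer cells lay above every library of CAFs alone, while the values with 344SQ and 393P cells overlapped. The means were 466 ± 62.0, 438 ± 33.5 and 120 ± 15.9 CPM (SD, n = 3 each), which is 3.89-fold higher with 344SQ cells and 3.66-fold higher with 393P cells than in CAFs alone. On the log2 scale the differences were 1.97 ± 0.17 for 344SQ and 1.88 ± 0.17 for 393P against CAFs alone, and 0.09 ± 0.15 for 344SQ against 393P. The standard error (SE) after each log2 difference was derived from the F statistic of the edgeR fit. The 393P library richest in carcinoma markers, replicate 3, had the lowest Ahr of its group, and without it the 393P difference was 1.94. With 344SQ cells it was the library with the fewest carcinoma markers, replicate 1 at 13.8 CPM, that had the lowest Ahr. The part of carcinoma RNA in the level of Ahr was not tested. In bulk RNA, fewer cells of a type and less RNA per cell cannot be told apart.

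Across the membrane the order was the other way round. Ahr ranged over 186 to 201 CPM (median 201) with 344SQ cells, over 215 to 249 CPM (median 241) with 393P cells, and over 265 to 299 CPM (median 285) in CAFs alone. The 3 groups did not overlap at any step of that order. The means were 196 ± 7.17, 237 ± 13.6 and 282 ± 14.6 CPM (SD, n = 5 each), a difference of -30.5% with 344SQ cells and of -16.1% with 393P cells from CAFs alone. The log2 differences were -0.52 ± 0.06 for 344SQ, -0.25 ± 0.06 for 393P and -0.27 ± 0.06 for 344SQ against 393P.

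In the shRNA aggregates Ahr had 109, 63.1 and 62.8 CPM with shZEB1 cells, against 209, 177 and 159 CPM with shCTL cells. All 3 shZEB1 libraries lay below all 3 shCTL libraries, with means of 78.4 ± 26.8 and 182 ± 25.5 CPM (SD, n = 3 each) and a log2 difference of -1.21 ± 0.45. Carcinoma markers differed between these libraries by far more than in the other tables. In the pair of libraries with the fewest such markers of their groups, Ahr was 109 CPM with shZEB1 (replicate 1) and 177 CPM with shCTL (replicate 2). In the library with the most, shCTL replicate 3, it was 159 CPM. The shZEB1 libraries richest in carcinoma markers, replicates 2 and 3, had the lowest Ahr, 63.1 and 62.8 CPM. Without shCTL replicate 3 the log2 difference was -1.28, and over 11 alternatives it ranged over -1.54 to -1.04. The mitochondrial share was 27.6%, 25.6% and 23.5% with shZEB1 cells, against 40.8%, 36.2% and 26.1% with shCTL cells. The summed fibroblast markers were 4413, 3829 and 3509 CPM with shZEB1 cells, against 2648, 4305 and 1711 CPM with shCTL cells. The part of carcinoma markers, mitochondrial share or fibroblast markers in the Ahr difference was not tested.

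Arnt, which encodes the partner that the receptor needs to bind DNA (ENSMUSG00000015522.18, chromosome 3, 95434388 to 95497240, plus strand), overlapped between the groups in every comparison. In the aggregates it had 88.4, 83.7 and 62.5 CPM with 344SQ cells, 52.5, 69.0 and 69.0 CPM with 393P cells, and 71.5, 68.7 and 53.3 CPM in CAFs alone. The 344SQ libraries reached highest, but their lowest value lay inside the range of CAFs alone, and the log2 differences were 0.27 ± 0.21 for 344SQ and -0.02 ± 0.21 for 393P. Its Boyden means were 48.1 ± 3.47 CPM with 344SQ cells, 48.0 ± 2.69 with 393P cells and 48.5 ± 2.33 in CAFs alone (SD, n = 5 each), with log2 differences from CAFs alone of -0.01 ± 0.07 for either line. With shZEB1 cells Arnt had 55.3, 35.2 and 53.8 CPM, against 38.3, 40.2 and 71.6 CPM with shCTL cells, again overlapping.

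Ahrr, the repressor that competes with the receptor for ARNT (ENSMUSG00000021575.15, chromosome 13, 74211118 to 74292331, minus strand), was close to the limit of detection and did not pass the filter on low counts in any of the 3 tables. In the aggregates it had 1, 12 and 10 counts with 344SQ cells, 2, 3 and 3 counts with 393P cells, and 1, 2 and 1 counts in CAFs alone. With 344SQ cells 2 of 3 libraries thus stood above all the rest of that table, and the third was as low as CAFs alone. The shZEB1 libraries had 2, 0 and 0 counts, against 9, 37 and 1 with shCTL cells, so most of the shCTL sum came from 1 library; a count of 0 allows up to 3 counts, or 4.40 CPM in shZEB1 replicate 2 and 1.92 CPM in replicate 3. In the Boyden sums all 5 replicates together gave 14 counts with 344SQ cells, 29 with 393P cells and 49 in CAFs alone, at 0.557, 0.878 and 1.28 CPM on average, and the ranges overlapped between neighbours in that order. No fold is given for so few counts.

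**Figure D1:**
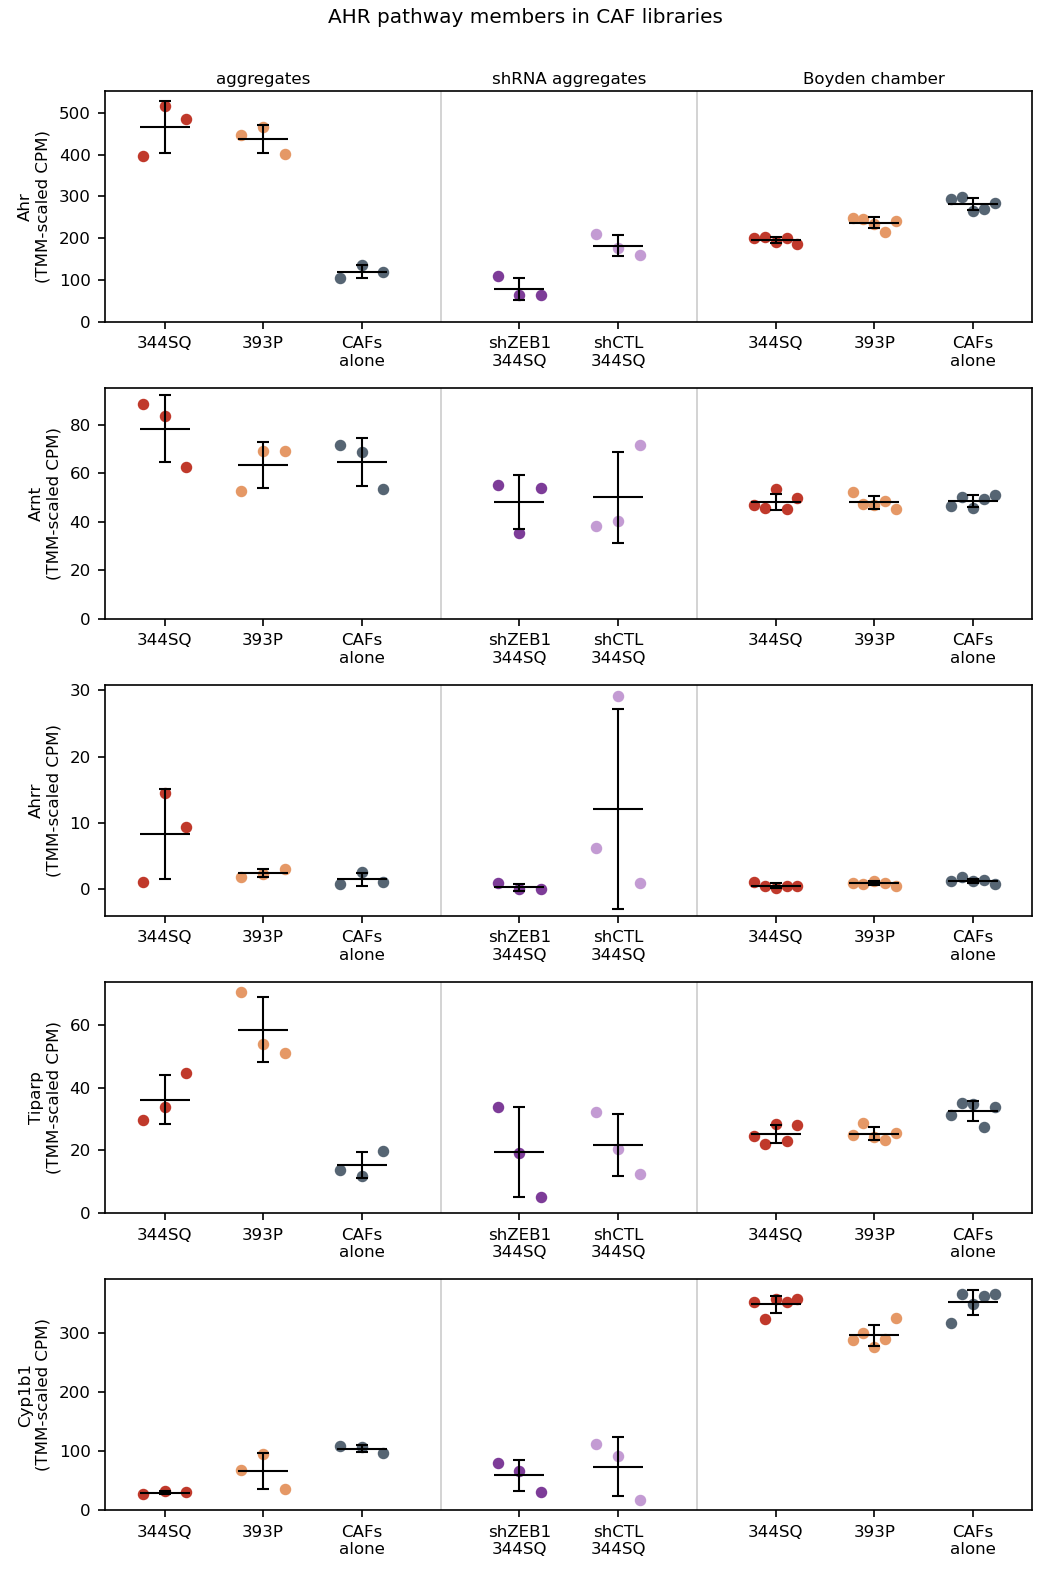
Levels of the 5 genes in TMM-scaled CPM (vertical axes, linear, a scale per gene) in the 8 groups, with a point per library (aggregates, n = 3) or per replicate summed over its technical libraries (Boyden chamber, n = 5), a wide bar for the mean and error bars for the SD; the lower arm of a bar can pass below 0. In the aggregates Ahr and Tiparp are higher and Cyp1b1 lower with either cancer line than in CAFs alone, while in the Boyden chamber Ahr is lowest with 344SQ cells.

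Tiparp, which encodes an ADP-ribosyltransferase that restrains the receptor (ENSMUSG00000034640.9, chromosome 3, 65528410 to 65555518, plus strand), was higher in the aggregates with cancer cells, as Ahr was, but most with 393P cells. It had 29.8, 33.9 and 44.8 CPM with 344SQ cells, 70.4, 53.9 and 51.2 CPM with 393P cells, and 13.8, 11.9 and 19.9 CPM in CAFs alone. The 3 groups did not overlap, with 393P highest and CAFs alone lowest. The means were 36.2 ± 7.73, 58.5 ± 10.4 and 15.2 ± 4.16 CPM (SD, n = 3 each), 2.38-fold higher with 344SQ cells and 3.85-fold higher with 393P cells than in CAFs alone. The log2 differences were 1.24 ± 0.30 for 344SQ, 1.93 ± 0.28 for 393P and -0.68 ± 0.25 for 344SQ against 393P. These levels rest on 105 counts with 344SQ cells, 192 with 393P cells and 44 in CAFs alone.

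Across the membrane Tiparp ranged over 22.04 to 28.3 CPM (median 24.5) with 344SQ cells, 23.1 to 28.8 CPM (median 24.9) with 393P cells and 27.4 to 35.1 CPM (median 33.8) in CAFs alone. CAFs alone had the highest values, but their lowest replicate overlapped both other groups. The log2 differences from CAFs alone were -0.37 ± 0.09 for 344SQ and -0.36 ± 0.09 for 393P. With shZEB1 cells Tiparp had 33.8, 19.1 and 5.13 CPM, against 32.1, 20.5 and 12.6 CPM with shCTL cells, a log2 difference of -0.16 ± 0.81 over overlapping values. It had the other sign without shCTL replicate 1, at 0.25, and without shZEB1 replicate 3, at 0.31.

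Cyp1b1, a cytochrome P450 that oxidises polycyclic hydrocarbons and oestradiol (ENSMUSG00000024087.3, chromosome 17, 79701537 to 79715061, minus strand), went the other way from Tiparp in the aggregates. It had 27.8, 31.5 and 29.9 CPM with 344SQ cells, 67.6, 95.2 and 35.5 CPM with 393P cells, and 109, 107 and 97.2 CPM in CAFs alone. The 3 groups did not overlap: CAFs alone were highest, 393P lay between and 344SQ was lowest and narrowest. The means were 29.7 ± 1.88, 66.1 ± 29.8 and 104 ± 6.16 CPM (SD, n = 3 each), which is 3.51-fold higher in CAFs alone than with 344SQ cells. The log2 differences were -1.81 ± 0.26 for 344SQ and -0.64 ± 0.23 for 393P against CAFs alone, and -1.17 ± 0.27 for 344SQ against 393P. The 393P value turned on single libraries: it was -0.35 without replicate 3, the library richest in carcinoma markers, and -1.01 without replicate 2, the highest in Cyp1b1. The part of carcinoma RNA in it was not tested.

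In the Boyden chamber the Cyp1b1 values of the 3 groups overlapped. They ranged over 324 to 358 CPM (median 353) with 344SQ cells, 277 to 326 CPM (median 290) with 393P cells and 317 to 367 CPM (median 363) in CAFs alone. The 393P group lay lowest, with 1 replicate reaching into each of the other groups' ranges. The log2 differences were -0.02 ± 0.06 for 344SQ and -0.25 ± 0.06 for 393P against CAFs alone, and 0.24 ± 0.06 for 344SQ against 393P. The 344SQ value had the other sign, 0.16, when the first technical library of each replicate was used alone. With shZEB1 cells Cyp1b1 had 79.9, 66.0 and 30.1 CPM, against 113, 92.2 and 16.4 CPM with shCTL cells, a log2 difference of -0.34 ± 0.67. The lowest of these values, 16.4 CPM, came from shCTL replicate 3, the library with 1534 CPM of carcinoma markers, and without that library the log2 difference was -0.80. Without shCTL replicate 1 it had the other sign, at 0.11.

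The known core of the receptor's binding site, GCGTG, was looked for on both strands in the 250 bases before the RefSeq start (build GRCm38.p6) of the 4 genes that the RefSeq promoter table holds, Ahrr, Arnt, Cyp1b1 and Tiparp. Each holds it at least once. The promoters of Tiparp, Cyp1b1 and Ahrr, the targets with unlike levels in the aggregates, are printed 5′ to 3′ along the gene, with each core in capitals; a core on the other strand reads CACGC.
Tiparp: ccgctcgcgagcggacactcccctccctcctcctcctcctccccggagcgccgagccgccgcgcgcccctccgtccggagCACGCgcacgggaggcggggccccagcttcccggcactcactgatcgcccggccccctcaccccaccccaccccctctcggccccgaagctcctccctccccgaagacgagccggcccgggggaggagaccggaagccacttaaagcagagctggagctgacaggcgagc
Cyp1b1: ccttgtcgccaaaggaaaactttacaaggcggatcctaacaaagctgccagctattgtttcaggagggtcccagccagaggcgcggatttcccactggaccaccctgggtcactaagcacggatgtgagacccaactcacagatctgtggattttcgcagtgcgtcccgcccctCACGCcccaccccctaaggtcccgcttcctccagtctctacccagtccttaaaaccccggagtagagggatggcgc
Ahrr: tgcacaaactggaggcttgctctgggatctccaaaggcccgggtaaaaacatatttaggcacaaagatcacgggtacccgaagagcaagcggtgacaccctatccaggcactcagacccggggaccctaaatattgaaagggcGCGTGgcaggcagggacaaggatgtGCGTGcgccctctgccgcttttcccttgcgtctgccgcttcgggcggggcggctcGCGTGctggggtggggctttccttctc
The Tiparp sequence is chr3:65528197-65528446 on the plus strand, that of Cyp1b1 is chr17:79715062-79715311 and that of Ahrr is chr13:74292332-74292581, both on the minus strand. Tiparp has 1 core that begins 170 bases before the start, and Cyp1b1 has 1 that begins 76 bases before it. Ahrr has 3, at 107, 82 and 27 bases, and Arnt has 1, at 29 bases. The core is common: 28.2% of 32851 promoters of that length hold it. The longer form TNGCGTG, which contains the core, stands in 4.10% of them and in 1 of the 4 genes, Ahrr, once. The genes with 1 core each include Tiparp, higher with cancer cells in the aggregates, Cyp1b1, lower there, and Arnt, whose groups overlapped. Sites outside these 250 bases were not looked for, and the part of the cores in the levels was not tested.

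**Figure D2:**
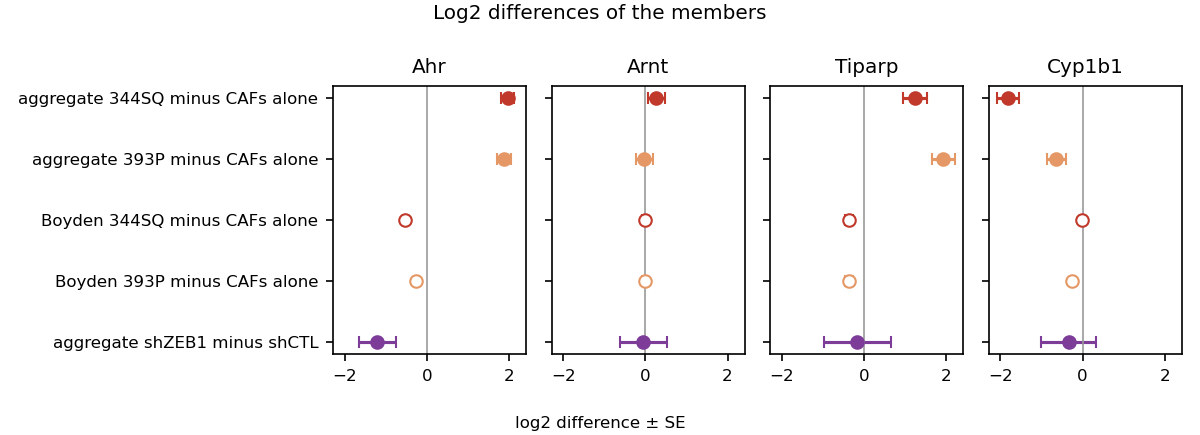
Log2 differences (horizontal axes) for the 4 genes that passed the filter on low counts, in 5 comparisons. Error bars are the SE derived from the edgeR fit. Filled red and orange points are aggregates, open points the Boyden chamber and purple points the shRNA aggregates. Ahr lies at 1.97 and 1.88 in the aggregates and at -0.52 and -0.25 in the Boyden chamber, while Arnt lies near 0.

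The counts of genes with separate groups have to be read against all genes. Of the 4 genes that passed the filter, 2 were higher without overlap in the aggregates with 344SQ cells than in CAFs alone and 1 was lower, where 10.6% and 10.9% of the 7992 genes tested did so. With 393P cells these were again 2 and 1, where 13.2% and 12.9% of all genes did so. Between 344SQ and 393P 2 were lower without overlap, Tiparp and Cyp1b1, as were 9.18% of all genes. With shZEB1 against shCTL 1 was lower, Ahr, as were 5.49% of 7801 genes. In the Boyden chamber 1 was lower in each comparison, Ahr in all 3, as were 5.08% of 14040 genes for 344SQ against CAFs alone, 6.30% for 393P against CAFs alone and 1.81% for 344SQ against 393P. Since the 5 genes were chosen on these values, nothing is read from the counts. The comparisons with CAFs alone share their CAFs-alone libraries within each table.

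A joint fit of the aggregate and Boyden tables gave the gap between the formats in the effect of each line. That fit pools the spread of both formats, so the SEs of these gaps understate the spread of the aggregates. Its biological coefficient of variation was 9.50%, beside 16.2% in the aggregates and 8.58% in the Boyden chamber. For Ahr the effect of 344SQ cells was higher in the aggregates by 2.54 ± 0.14 on the log2 scale and that of 393P cells by 2.21 ± 0.14. For Tiparp the gaps were 1.66 ± 0.28 and 2.36 ± 0.26. For Cyp1b1 they were -1.76 ± 0.23 with 344SQ cells and -0.29 ± 0.20 with 393P cells, and the value for 393P ranged over -0.69 to -0.0037 across 22 alternatives. Of all 15193 genes in that fit, 4.73% with 344SQ cells and 8.98% with 393P cells had a gap that passed an adjusted p under 0.05; the gaps of the 5 genes were not tested. The formats differ in contact, depth, rRNA-like share and mitochondrial share at once, and these cannot be told apart.

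Per kilobase of exon, which allows levels of different genes to be set side by side, Ahr was the highest of the 5 in the aggregates with cancer cells and Cyp1b1 in the Boyden chamber. Ahr averaged 75.6, 71.1 and 19.4 CPM per kb in aggregates with 344SQ cells, with 393P cells and in CAFs alone. Cyp1b1 averaged 5.09, 11.3 and 17.9 CPM per kb in the same groups. In the Boyden chamber Cyp1b1 averaged 59.7, 50.7 and 60.3 CPM per kb, and Ahr 31.8, 38.4 and 45.8 CPM per kb. Arnt and Tiparp stayed between 3.48 and 13.4 CPM per kb in all 8 groups, and Ahrr averaged at most 1.28.

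The ratio of Cyp1b1 to Ahr, per kilobase and within a library, separated the aggregates. It was 0.064 to 0.074 with 344SQ cells, 0.093 to 0.22 with 393P cells and 0.83 to 1.10 in CAFs alone. In the Boyden chamber it was 1.69 to 2.03 with 344SQ cells, 1.22 to 1.43 with 393P cells and 1.14 to 1.42 in CAFs alone, so there the 344SQ group was the highest. With shZEB1 cells it was 0.51 to 1.10, against 0.11 to 0.57 with shCTL cells. The ratio of Tiparp to Ahr was 0.093 to 0.13 with 344SQ cells, 0.16 to 0.22 with 393P cells and 0.12 to 0.24 in CAFs alone in the aggregates.

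**Figure D3:**
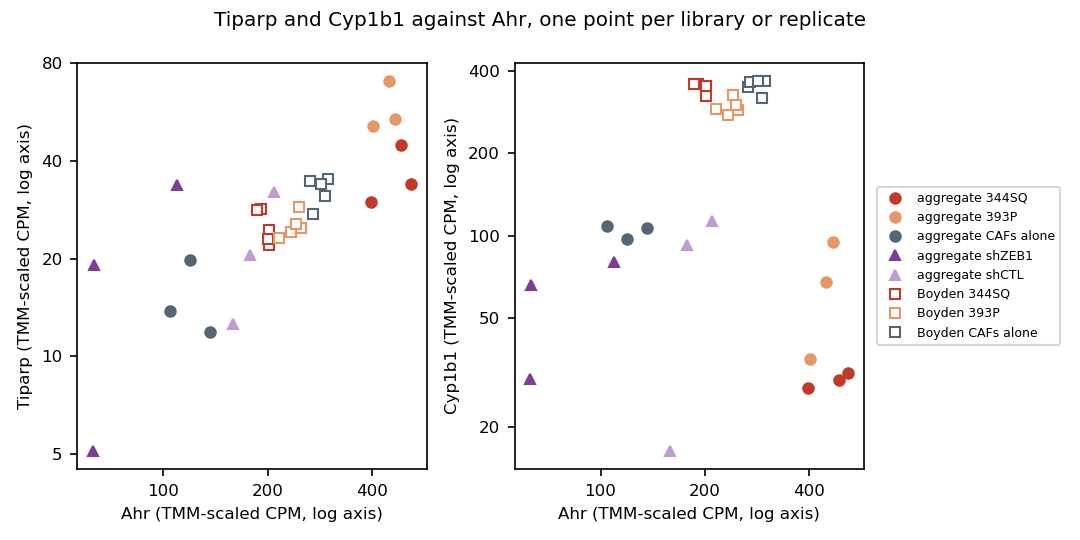
Tiparp (left, vertical axis) and Cyp1b1 (right, vertical axis) against Ahr (horizontal axes), all in TMM-scaled CPM on log axes, with a point per aggregate library (circles), shRNA aggregate library (triangles) or Boyden replicate (squares). Aggregates with 344SQ or 393P cells have Ahr of 397 to 516 CPM with Cyp1b1 of 27.8 to 95.2 CPM, against Ahr of 104 to 136 CPM with Cyp1b1 of 97.2 to 109 CPM in aggregates of CAFs alone; the tables were scaled separately, so positions are read within one shape of point.

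Over the 30 libraries and replicates, as log2 CPM centred within each table, Ahr and Tiparp correlated at 0.74 (0.88 over 9 aggregates, 0.53 over 6 shRNA aggregates and 0.68 over 15 Boyden replicates). Ahr and Cyp1b1 correlated at -0.33, with -0.72 in the aggregates, 0.26 in the shRNA aggregates and 0.017 in the Boyden chamber. The points share groups and tables, so these values describe the samples only. Among 6814 genes that passed the filter in all tables, Klf9, a zinc finger transcription factor, was most like Ahr (r = 0.90), followed by Ptprg and Spry4, both at 0.82. Vasn (0.87), Pik3r1 (0.86) and Slit2 (0.84) were most like Tiparp. Apobec3 (0.87), Plpp3 (0.84) and Zmat2 (0.81) were most like Cyp1b1, and Wapl (0.83), Psma3 (0.80) and Ranbp2 (0.78) most like Arnt.

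Cyp1a1 and Cyp1a2, known readouts of the receptor, and several enzymes of tryptophan breakdown had few counts or none. Cyp1a1, the target best known for its response to dioxin, had 1 count over all 9 aggregate libraries, 8 counts over the 6 shRNA aggregates, all in 1 library, and 19 over the 15 Boyden replicates, of which 9 were at 0. Cyp1a2 had 1 count in all, in the aggregates. Of the enzymes that make receptor ligands from tryptophan, Tdo2 had 1, 1 and 7 counts over the aggregates, the shRNA aggregates and the Boyden sums, and Ido1 1, 0 and 0. At this depth Cyp1a1, Cyp1a2, Tdo2 and Ido1 give no comparison between groups. Il4i1, an amino acid oxidase of the same list, had 8, 6 and 10 counts. Others of the list were better covered: Kyat1 and Kyat3, kynurenine aminotransferases, had 582 and 398 counts over the Boyden sums and Afmid, the kynurenine formamidase, had 140. They are among the 5 of the 14 genes of the list that passed the filter there; in the aggregates 2 of the 14 passed. Of 4080 exon bases of Il4i1 3423 overlap another gene, as do 1566 of 3539 of Afmid, so the counts of both are uncertain. Nqo1, a quinone reductase also known as a target, had 94, 221 and 1713 counts over the aggregates, the shRNA aggregates and the Boyden sums.

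The other genes of the pathway were read from 7 lists with 76 genes, and tested with edgeR's quasi-likelihood test with Benjamini-Hochberg adjustment over all genes, at an adjusted p under 0.05. In the aggregates with 344SQ cells against CAFs alone, 49 of the 76 were tested, 5 rose and 3 fell, with a median log2 difference of -0.040 beside -0.0067 over all genes, of which 5.84% passed. Epas1, a relative of the receptor and a subunit of hypoxia-inducible factor, rose by 3.02 ± 0.57 on the log2 scale (adjusted p = 0.000763). This rests on few counts, as Epas1 had 1 to 19 counts per aggregate library. Among 13 other reported targets tested, 3 rose and 1 fell: Ereg, an EGF-family growth factor, by 2.40 ± 0.25 (adjusted p = 1.34e-07), Ptgs2, the inducible cyclooxygenase, by 1.43 ± 0.19 (6.08e-06), and Vav3 by 1.62 ± 0.46 (0.0287) rose, while Xdh, xanthine dehydrogenase, fell, at -0.83 ± 0.17 (0.00176). Por, the reductase that feeds electrons to cytochromes P450, rose by 0.70 ± 0.17 (0.00766). Ugt1a1 and Ugt1a7c fell, at -2.31 ± 0.58 (0.0117) and -0.93 ± 0.20 (0.00371), but the Ugt1a genes share exons, so their counts are uncertain. None of the 8 chaperone and turnover genes tested, the 12 coregulators or the 2 Tiparp relatives passed. Without CAFs-alone replicate 3 the total was 4 genes instead of 8, with 3 higher and 1 lower.

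With 393P cells in the aggregates, 7 of the 49 rose and 7 fell, with a median of -0.11 beside -0.0023 over all genes, of which 10.7% passed. Epas1, again on few counts, rose by 2.62 ± 0.59 (edgeR adjusted p = 0.00232), while its relatives Hif1a, at -0.74 ± 0.19 (0.00695), and Arnt2, at -1.09 ± 0.31 (0.0166), fell. Of the other reported targets 4 rose and 2 fell: Il6, the inflammatory cytokine, rose by 1.95 ± 0.44 (0.00239) and Hes1, a Notch target, by 1.38 ± 0.31 (0.00236), and Xdh fell, at -1.61 ± 0.18 (8.47e-08). Por rose by 1.20 ± 0.17 (4.09e-06). Slc7a5, the transporter that takes in tryptophan and kynurenine, fell, at -0.98 ± 0.32 (0.0424). Between the lines, 344SQ against 393P, 4 genes were higher and 1 lower of 49, with a median of 0.068 beside 0.0071 over all genes, of which 4.15% passed. Ereg was higher with 344SQ cells by 1.50 ± 0.23 (5.36e-05) and Ptgs2 by 1.07 ± 0.19 (0.000361), and Il6 was lower, at -1.82 ± 0.43 (0.00952).

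Across the membrane with 344SQ cells, 8 of 56 genes tested rose and 7 fell, with a median of -0.0060 beside 0.0064 over all genes, of which 14.9% passed. Serpinb2, an inhibitor of plasminogen activators, rose by 2.78 ± 0.27 (edgeR adjusted p = 2.84e-08), Il6 by 1.26 ± 0.10 (1.28e-09) and Ereg by 1.24 ± 0.08 (5.58e-12). Hif1a rose by 0.58 ± 0.06 (2.71e-08) and Epas1, which averaged 2.46 CPM with 344SQ cells and 1.09 CPM in CAFs alone, by 1.21 ± 0.31 (0.00852). Nqo1, a quinone reductase, fell, at -0.91 ± 0.11 (8.19e-07), and so did the transporter subunits Slc7a5, at -0.52 ± 0.08 (2.36e-05), and Slc3a2, at -0.33 ± 0.08 (0.00319). With 393P cells 5 of 56 rose and 10 fell, with a median of -0.12 beside 0.00065 over all genes, of which 15.6% passed. Nqo1, at -0.61 ± 0.10 (0.000143), and Nedd9, an adaptor protein, at -0.69 ± 0.07 (1.38e-07), fell, while Ereg rose by 0.50 ± 0.08 (7.63e-05). For 344SQ against 393P across the membrane, 7 were higher and 1 lower of 56, with a median of 0.025 beside 0.0038 over all genes, of which 3.88% passed. Il6 was higher with 344SQ cells by 1.29 ± 0.11 (3.46e-09).

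With shZEB1 against shCTL, 45 of the list genes were tested and 0 passed edgeR's adjusted threshold, as did 0 of all 7801 genes, while 466 genes, or 5.97%, had an unadjusted p under 0.05. The median of the lists was -0.34 beside -0.015 over all genes. Ptgs2 had a log2 difference of -1.39 ± 0.50 (edgeR adjusted p = 0.782) and Hif1a of -1.15 ± 0.52 (0.799). DESeq2 called 27 genes, among them Serpinb2 at -4.80 (adjusted p = 0.0372), which had 3, 1 and 1 counts with shZEB1 cells, against 25, 93 and 3 with shCTL cells.

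**Figure D4:**
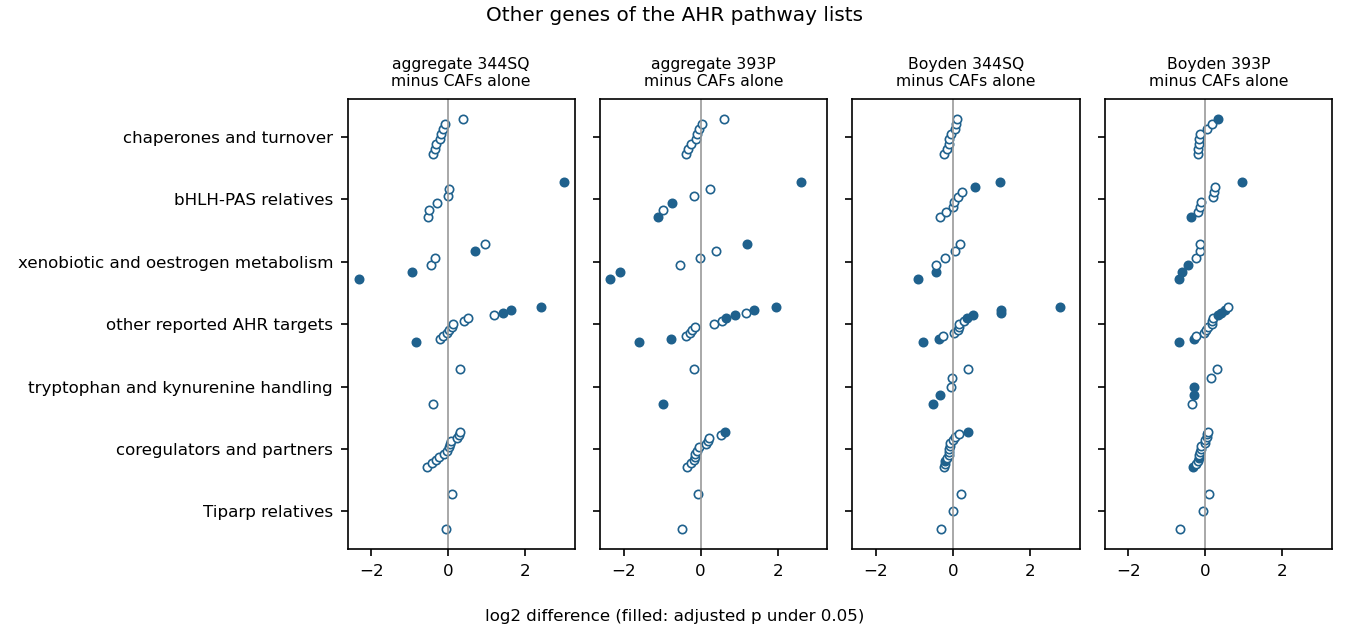
Log2 differences (horizontal axes) of the other genes of the AHR pathway lists, a point per gene tested, by list (rows), in the 4 comparisons with CAFs alone; filled points had an adjusted p under 0.05 in edgeR's quasi-likelihood test. With 344SQ cells 8 of 49 genes are filled in the aggregates and 15 of 56 in the Boyden chamber, and with 393P cells 14 of 49 and 15 of 56.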

How the data were processed

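The authors deposited whole-number read counts per gene in 3 tables (aggregates, shRNA aggregates, Boyden chamber), made with STAR and HTSeq on mm10, per the submitters' processing notes. For versions, annotation release and strand setting, nothing is given in the sources used here. All 60 libraries were used. Technical libraries of the Boyden chamber (3 per replicate) were summed. Positions, exon lengths and overlaps come from GENCODE M21 (GRCm38, the assembly of mm10), in which 48058 of 48440 gene IDs were found, 40606 with the same version. Of 6163 exon bases of Ahr 127 overlap an antisense gene, and of 4358 of Tiparp 223 overlap 4931440P22Rik, which had 0 to 5 counts; without the strand setting such reads cannot be told apart.

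Each table was fitted with edgeR 4.0.16 (filterByExpr with a minimum count of 10, TMM scaling, a mean per group, 2-sided quasi-likelihood tests, Benjamini-Hochberg over all genes, called at an adjusted p under 0.05), with limma 3.58.1 and R 4.3.3; Python 3.11.15 and matplotlib 3.10.9 drew the figures. A joint fit of the aggregate and Boyden tables tested the difference between formats. Levels are TMM-scaled CPM, and marker sums use total counts. The SE of a log2 difference is the absolute difference divided by the square root of its quasi-likelihood F statistic. Likeness is Pearson's r of log2(CPM + 1). Intervals for counts of 0 cover counting error only. Scripts were tested on simulated data. The 5 genes and the 7 lists were chosen with earlier results of these data known. From each list up to 4 genes with the smallest p among those called are named, or the 2 of highest level where none was, though some of these are not reported here; Tdo2, Ido1, Il4i1, Kyat1, Kyat3, Afmid, Cyp1a1, Cyp1a2 and, under DESeq2, Serpinb2 were named after their values were seen. Alternatives were no filter, RLE and upper-quartile scaling, DESeq2 1.42.0, a fit of the 2 groups compared, a replicate block, the first technical library alone, each replicate left out and, added after seeing the data, rRNA-like and mitochondrial genes removed.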

Additional observations from a re-analysis of the deposited data

Results flagged for a closer look

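In the Boyden chamber with 344SQ cells, replicate 2 had 323.5 CPM of Cyp1b1 and lay far from the other 4 replicates for the range of its group. It was the 1 such value among 12 sets of 5 examined, and chance alone gives about 1 in 20 sets. These sets are the 4 genes that passed the filter in each Boyden group, so they share samples and are not independent.

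For Ahr and Tiparp every aggregate library with cancer cells lay above the mean of CAFs alone and every Boyden replicate with cancer cells below it. The gap between the formats, aggregate minus Boyden, was 2.5396 with 344SQ cells and 2.2147 with 393P cells for Ahr, and 1.6636 and 2.3638 for Tiparp on the log2 scale. These differences were not tested, since the genes were chosen on these values.

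Among the other pathway genes, the effect of a line differed between the formats in the joint edgeR fit (aggregate minus Boyden, log2, adjusted p under 0.05). That fit pools the spread of both formats, so its adjusted p-values understate the spread of the aggregates. With 344SQ cells 11 of 59 genes tested passed, beside 4.73% of all genes. The effect was higher in the aggregates for Nqo1 by 1.9158, Ereg by 1.2262, Ptgs2 by 1.1169 and Slc3a2 by 0.6991. It was lower for Xdh (-0.9425), Hif1a (-0.8433), Ugt1a7c (-0.6954), Nrip1 (-0.6833) and Ugdh (-0.6126). The Nqo1 value rests on few counts, 7 to 18 per aggregate library. In the aggregates alone, Nqo1 did not pass for 344SQ cells against CAFs alone. With 393P cells 10 of 59 passed, beside 8.98% of all genes. The effect was higher for Il6 by 2.1026, Por by 1.4336 and Nfe2l2 by 0.7192, and lower for Ugt1a7c (-1.7635), Xdh (-1.2924), Ugdh (-1.1044) and Hif1a (-0.538).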

How the results depend on the processing

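Of 151 recomputed counts of pathway genes called, 142 stayed within 1.5 times the reported count, 7 were lower and 2 higher. For shZEB1 against shCTL the count was 2 with no filter (Aldh3a1 higher, Serpinb2 lower) and 1 with DESeq2, against 0. With technical library 1 alone it was 8 (of 15) for 344SQ and 6 (of 15) for 393P against CAFs alone in the Boyden chamber, 4 (of 8) for 344SQ against 393P, and 6 (of 11) for the 344SQ effect between formats; this alternative holds fewer reads. With each replicate left out the counts ranged over 4 to 8 (344SQ against CAFs alone, aggregates; 4 without CAFs alone replicate 3), 11 to 14 (393P against CAFs alone), 4 to 6 (344SQ against 393P), 0 to 0 (shRNA), 15 to 18, 12 to 16 and 8 to 10 (the same comparisons in the Boyden chamber), and 6 to 14 and 8 to 12 for the 344SQ and 393P effects between formats. For 344SQ between formats it was 7 without aggregate 344SQ replicate 3 and 6 without aggregate CAFs alone replicate 1.

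Same-numbered samples correlated by -0.030 to 0.072 in the aggregates, -0.030 to 0.13 in the shRNA aggregates and -0.30 to 0.26 in the Boyden sums. Differently numbered samples did so by -0.083 to 0.080, -0.15 to 0.085 and -0.37 to 0.41. The numbers thus gave no sign of pairing, though so few samples cannot exclude it. With the replicate block the counts were 8, 14 and 6 in the aggregates, 0 for shRNA, 16, 15 and 8 in the Boyden chamber, and 10 and 10 between formats, in the order above.

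For the 5 genes, 604 of 610 recomputed log2 differences moved by less than 1 SD of the replicates. Of the 6 that moved further 1 changed sign, Cyp1b1 with 344SQ cells in the Boyden chamber (0.1637 with technical library 1 alone). In all 31 of the 610 had the other sign: 21 of Arnt, 6 of Tiparp, 4 of Cyp1b1 and 0 of Ahr and Ahrr. The cause of these changes was not tested. Ahrr entered only through the gaps between formats, with 42 of the 610 values, so its lack of sign changes covers no other comparison. Depth limits Ahrr and Cyp1a1, which had few counts, and the spread of the shRNA aggregates limits every value there.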
